A study of Rattus norvegicus with 8 samples.

Results

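TGF-beta and activin genes were examined in rat liver cells captured by laser microdissection (LMD): the ligand genes Tgfb1, Tgfb2 and Tgfb3, the activin subunit genes Inhba and Inhbe, the receptor genes Tgfbr1 and Tgfbr2, and the inhibitor genes Fst and Smad7. The 9 genes were taken by name from the array's annotation, by a list drawn up with earlier results of these data known, and they were represented by 17 of the 45598 probes on the array. Of these probes, 13 were bright enough to be tested, and each of the 9 genes kept at least 1 tested probe among the 14504 genes tested. A gene is described by its brightest tested probe unless another probe is named.

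The study asked how bone marrow-derived mesenchymal cells (BM-MCs) act on small hepatocyte-like progenitor cells (SHPCs), which form clusters of small hepatocytes in injured livers. Recipient rats were F344 animals treated with retrorsine, a plant alkaloid that blocks division of hepatocytes, followed by partial hepatectomy (Ret/PH). The 3 control SHPC samples came from Ret/PH livers without donor cells, and the 3 samples of SHPCs with BM-MCs came from Ret/PH livers that had received cultured BM-MCs through the spleen. The 2 samples of mature hepatocytes (MHs) were cut from the recipient control livers, so that the MHs, too, had been exposed to the Ret/PH treatment. The labels give the strain as DPPIV+, whereas the methods describe DPPIV- recipients, which are female, and DPPIV+ donors. The age of the recipients was not given in the sources used here. SHPCs were recognised by the small size and clustering of the cells and not by a marker gene, and the sources do not tie samples to animals. The p-values therefore measure the spread between these samples, which may be technical.

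TGF-beta ligands are made as latent precursors, and once released they bring together type II and type I receptors, which phosphorylate Smad proteins that enter the nucleus. In the liver, TGF-beta is best known for restraining hepatocyte division and for driving stellate cells to make matrix. Activins are dimers of inhibin beta subunits that signal through related receptors and also restrain hepatocyte growth, and follistatin, the product of Fst, binds activins and keeps them from their receptors.

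The probes are 60-base oligonucleotides, and those of the activin subunits and their inhibitor Fst and of the main TGF-beta ligand are printed here 5′ to 3′ so that the measured stretch of each transcript can be seen. Capitals mark the longest run shared by the probes of the subunit genes Inhba and Inhbe, which is 9 bases long, and the stop codon at the end of the Fst probe. No letters are marked in the Tgfb1 probe.
Inhba: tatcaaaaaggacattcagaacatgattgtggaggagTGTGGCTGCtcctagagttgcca
Inhbe: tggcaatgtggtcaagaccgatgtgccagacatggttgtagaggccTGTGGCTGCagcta
Fst: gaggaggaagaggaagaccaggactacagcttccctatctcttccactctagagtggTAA
Tgfb1: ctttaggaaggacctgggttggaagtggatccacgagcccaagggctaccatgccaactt
In the array's annotation the Inhba probe lies on chromosome 17 from 57244565 to 57244624, the Inhbe probe on chromosome 7 from 67308714 to 67308773 and the Fst probe on chromosome 2 from 46542246 to 46542305, each on the minus strand. The Tgfb1 probe lies on chromosome 1 from 80910123 to 80910182 on the plus strand. The annotation column names no genome build for these positions, and the scanner header names rn4.

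Each level is a log2 signal minus the 75th percentile of its own array, so that 0 is the level of a bright spot and a step of 1 is a doubling of signal. Levels of different probes are not comparable with each other. A single slide held the 8 arrays and was scanned once (1 scan), and between 57% and 61.5% of their spots were well above background. Row 1 of the slide held both MH samples with replicates 1 and 2 of the control SHPCs, and row 2 held control SHPC replicate 3 with the 3 samples of SHPCs with BM-MCs. Slide row and transplantation thus largely coincide, and differences within a row are given where they bear on a result. The log2 sum of the 8 hepatocyte marker genes was between 9.54 and 9.96 in every sample. Their mean log2 level was 5.67 in both MHs, 5.72 to 6.10 in control SHPCs and 5.63 to 5.95 in SHPCs with BM-MCs, and Apoa1 and Cps1 were the 2 of 8 with an unadjusted p under 0.05 between control SHPCs and MHs, at 0.73 and 0.92 (adjusted p = 0.18 and 0.23 from limma), against 7.72% of all genes higher at that level. Of 8 cell cycle genes, 4 passed an adjusted p of 0.05 from limma as higher in control SHPCs when set against MHs, where 1% of all genes did, and 4 passed in SHPCs with BM-MCs, where 0.379% of all genes did. Between the SHPC groups all 8 had lower means with BM-MCs, with a median difference of -0.92, and 6 of them had an unadjusted p under 0.05, against 5.87% of all genes lower at that level, but 0 passed the adjusted threshold.

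Groups were compared with limma, which fits a linear model to each probe and borrows information on the spread from all probes, and p-values were adjusted over all probes by the Benjamini-Hochberg method. No member passed an adjusted p of 0.05 in any of the 3 comparisons. Tgfb1, Tgfbr2 and Fst had the clearest differences between control SHPCs and MHs, all towards lower levels in SHPCs, and Fst had the clearest difference with BM-MCs, towards a higher level. Inhba and Inhbe stood above the MHs in every SHPC sample that was measured. Of all genes, 16.9% did so in control SHPCs and 14.8% in SHPCs with BM-MCs. With the slide row as a block, Inhbe turned to -0.30 in SHPCs with BM-MCs relative to MHs. Tgfb2, Tgfb3, Tgfbr1 and Smad7, and also Inhbe, had no unadjusted p under 0.05 from limma in any comparison.

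**Figure D1:**
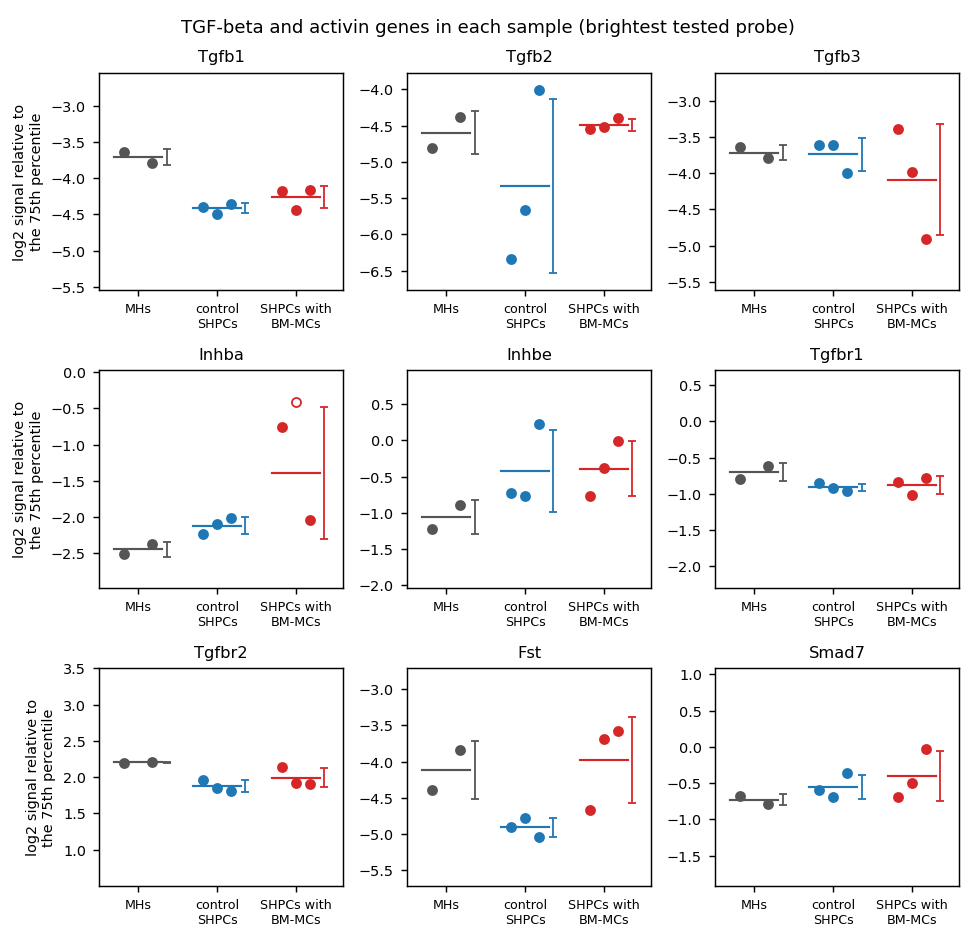
Level of each gene (y axis, log2 signal relative to the 75th percentile of the array) in the 2 MH samples (grey), 3 control SHPC samples (blue) and 3 samples of SHPCs with BM-MCs (red). Points are samples in replicate order, horizontal lines are means and vertical bars are SDs, and the open circle is the Inhba spot of BM-MC replicate 2, which the scanner marked as an outlier and which enters neither mean nor test. The 2 MH points of Tgfb1 lie above all 6 SHPC points, and the 3 control points of Fst lie below all others.

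The comparison of control SHPCs with MHs asks how progenitor clusters differ from the surrounding hepatocytes. Among all genes tested, limma with Benjamini-Hochberg adjustment called 145 genes higher in control SHPCs, 1% of those tested, and 32 lower, 0.221%, and 0 of the 9 members were among them in either direction. At an unadjusted p under 0.05, 0 members were higher and 3 were lower, against 7.72% and 12.5% of all genes. Every control SHPC sample was above every MH sample for 2 members and below for 4, against 16.9% and 25.5% of all genes. The median difference of the members was -0.21 on the log2 scale, and that of all genes was -0.06.

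The second comparison, of SHPCs with BM-MCs with MHs, used the same MH samples, so its differences are not independent of the first. Here 55 genes, 0.379%, were called higher and 4 genes, 0.0276%, were called lower, and 0 of the 9 members were called. At an unadjusted p under 0.05, 1 member was higher and 1 was lower, against 6.79% and 6.74% of all genes. All SHPC samples were above the MHs for 2 members and below for 2, against 14.8% and 18.1% of all genes.

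Transplantation itself was assessed by setting SHPCs with BM-MCs against control SHPCs. It gave 4 genes, 0.0276%, called higher and 0 genes, 0%, called lower, and again 0 of the 9 members. At an unadjusted p under 0.05, 1 member was higher and 0 were lower, against 10.3% and 5.87% of all genes. The groups did not overlap for 1 member, which was higher, against 13.3% of all genes higher and 11.3% lower. The median of the members was 0.15 and that of all genes 0.02. Scaling the arrays on their medians instead of their 75th percentiles moved the differences in this comparison by a median of -0.19, so small positive values here depend on the scaling. It moved those of SHPCs with BM-MCs from MHs by -0.198, and those of control SHPCs from MHs by -0.0065.

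**Figure D2:**
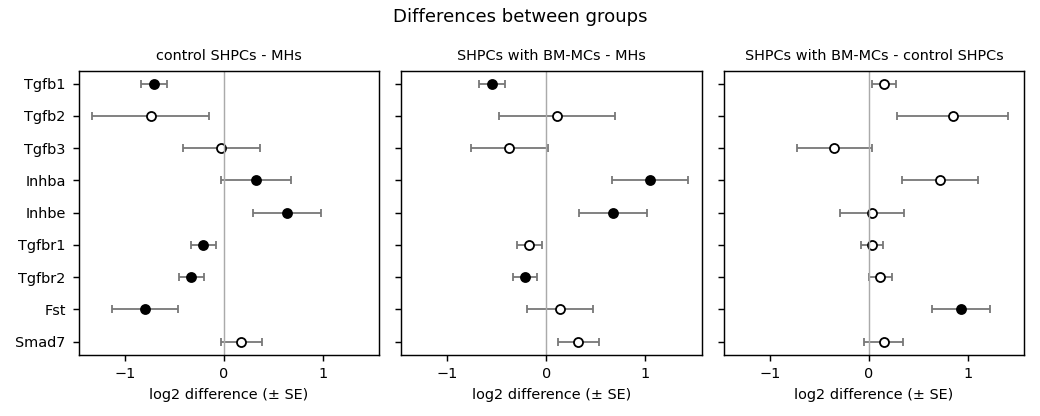
Log2 difference of each gene (x axis) in the 3 comparisons, with bars of 1 standard error from limma. Filled points are genes whose groups did not overlap and open points are genes whose groups overlapped. Fst is the filled point in the comparison of SHPCs with BM-MCs with control SHPCs, at 0.93.

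Tgfb1 encodes the main TGF-beta ligand of the liver, made largely by its non-parenchymal cells. Its level was -3.63 and -3.79 in the MHs, -4.40, -4.49 and -4.36 in control SHPCs, and -4.18, -4.44 and -4.16 in SHPCs with BM-MCs. Both MH samples were above all 6 SHPC samples, and the SHPC groups overlapped. Control SHPCs were 0.70 lower than MHs on the log2 scale, a 1.63-fold difference (standard error 0.13, adjusted p = 0.065 from limma). SHPCs with BM-MCs were 0.55 lower than MHs (standard error 0.13, adjusted p = 0.22 from limma). Within row 1 of the slide the difference between control SHPCs and MHs was -0.73. With every sample in turn left out, the control SHPCs stayed below the MHs. The difference passed under 1 alternative, in which a probe had to exceed background on each of the 7 complete arrays to be tested (adjusted p = 0.0496 from limma). Between the SHPC groups Tgfb1 differed by 0.15 (standard error 0.12, adjusted p = 0.54 from limma), and this sign turned with median scaling and with quantile normalization, whether or not normexp correction came first.

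Lists of macrophage and stellate cell markers, like Tgfb1, had lower sums in control SHPCs than in MHs. The log2 sum of 8 macrophage markers, set mainly by Clec4f, was 5.59 to 5.75 in MHs, 4.71 to 5.27 in control SHPCs and 5.06 to 5.54 in SHPCs with BM-MCs. The sum of 8 stellate cell markers, set mainly by Colec11, was 4.28 to 4.34 in MHs, 3.65 to 3.91 in control SHPCs and 3.69 to 4.27 with BM-MCs. By their means, 5 of the 8 stellate markers were lower in control SHPCs than in MHs and 3 were higher. The sum of the 6 sinusoidal endothelial markers measured was 3.87 to 4.13, 3.69 to 3.88 and 3.90 to 4.05 in the same order. Biliary marker sums, over the 4 of 7 genes bright enough to be tested, were -1.84 to -1.49, -1.22 to -1.08 and -1.26 to -0.91. Of the macrophage, stellate and endothelial markers 4 of 8, 4 of 8 and 2 of 6 were lower in control SHPCs than in MHs at an unadjusted p under 0.05, and 0, 1 and 0 were higher, against 12.5% and 7.72% of all genes. The 1 higher was the stellate marker Pdgfrb, at 0.47. Among the biliary markers 2 of 4, Cldn4 and Krt19, were higher and 0 were lower. In these 4 lists, 0 markers had an adjusted p under 0.05 from limma. The part of these cells in the levels of Tgfb1, Tgfbr2 and Fst was not tested. In captured tissue, fewer cells of a type and less RNA per cell cannot be told apart.

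Tgfb2 and Tgfb3 encode the other TGF-beta ligands. Tgfb2 was dim, at -4.81 and -4.39 in MHs, -6.34, -5.67 and -4.00 in control SHPCs, and -4.55, -4.52 and -4.40 in SHPCs with BM-MCs. The SHPCs with BM-MCs were alike, whereas control SHPC replicates 1 and 2 were the lowest samples and replicate 3 was the highest of all 8. The groups therefore overlapped, and the difference with BM-MCs was 0.85 (standard error 0.56, adjusted p = 0.47 from limma). Without control SHPC replicate 3 it was 1.51 (adjusted p = 0.041 from limma), a value set against 2 controls of which replicate 1 was not well above background, and within row 2 of the slide, which holds that replicate alone as control, it was -0.48. A second tested probe for Tgfb2 gave 0.24 (standard error 0.30, adjusted p = 0.70 from limma), with overlapping groups, and the remaining 2 probes were not well above background on any marked array. Control SHPCs were at -0.74 relative to MHs by the first probe (adjusted p = 0.52 from limma) and at -0.43 by the second (adjusted p = 0.48 from limma). The former was -1.41 within row 1 of the slide, which does not hold control SHPC replicate 3, and -0.24 when control SHPC replicate 1 was left out.

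Tgfb3 was at -3.65 and -3.79 in MHs, at -3.61, -3.62 and -4.00 in control SHPCs, and at -3.39, -3.98 and -4.90 in SHPCs with BM-MCs. BM-MC replicate 1 was the highest sample and replicate 3 the lowest, so that the whole range of this gene lay within 1 group. The difference with BM-MCs was -0.35 (standard error 0.38, adjusted p = 0.66 from limma), and it was 0.06 without BM-MC replicate 3.

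Inhba encodes the beta A subunit of activin A. The probe printed above gave -2.52 and -2.37 in MHs, -2.24, -2.09 and -2.02 in control SHPCs, and -0.75 and -2.04 in BM-MC replicates 1 and 3. Among the spots kept, BM-MC replicate 1 was far above the other samples, and replicate 3 lay among the controls. The spot of BM-MC replicate 2 was marked by the scanner for uneven pixels, so the fit dropped it. Its signal corresponds to a level of -0.41, which would be the highest of the 8 samples. From the 2 samples kept, the difference with BM-MCs was 0.72 relative to control SHPCs (standard error 0.38, adjusted p = 0.40 from limma) and 1.05 relative to MHs (standard error 0.39, adjusted p = 0.34 from limma). With the marked spot kept the differences were 1.05 and 1.38 (adjusted p = 0.29 and 0.30 from limma). Without BM-MC replicate 1, which left replicate 3 as the lone BM-MC sample, they were 0.08 and 0.40, and without replicate 3, which left replicate 1, they were 1.36 and 1.69 (adjusted p = 0.087 and 0.049 from limma). In these fits the lone sample is assumed to vary like the other groups, so each of these values rests on 1 BM-MC spot. Control SHPCs were above both MH samples, by 0.33 on average (standard error 0.35, adjusted p = 0.64 from limma).

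The other Inhba probes were not bright enough to be tested. One of them was not well above background on any marked array. The other lay between -8.50 and -7.76 in MHs and control SHPCs and at -8.03 and -7.93 in BM-MC replicates 1 and 3. In BM-MC replicate 2 alone it was well above background, at -3.46. Replicate 2 was thus high on 2 of the 3 Inhba probes, whereas replicate 1 was high on 1. Of the high values of replicate 2, 1 is the spot marked for uneven pixels. The other is 1 spot of a probe that was not tested.

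**Figure D3:**
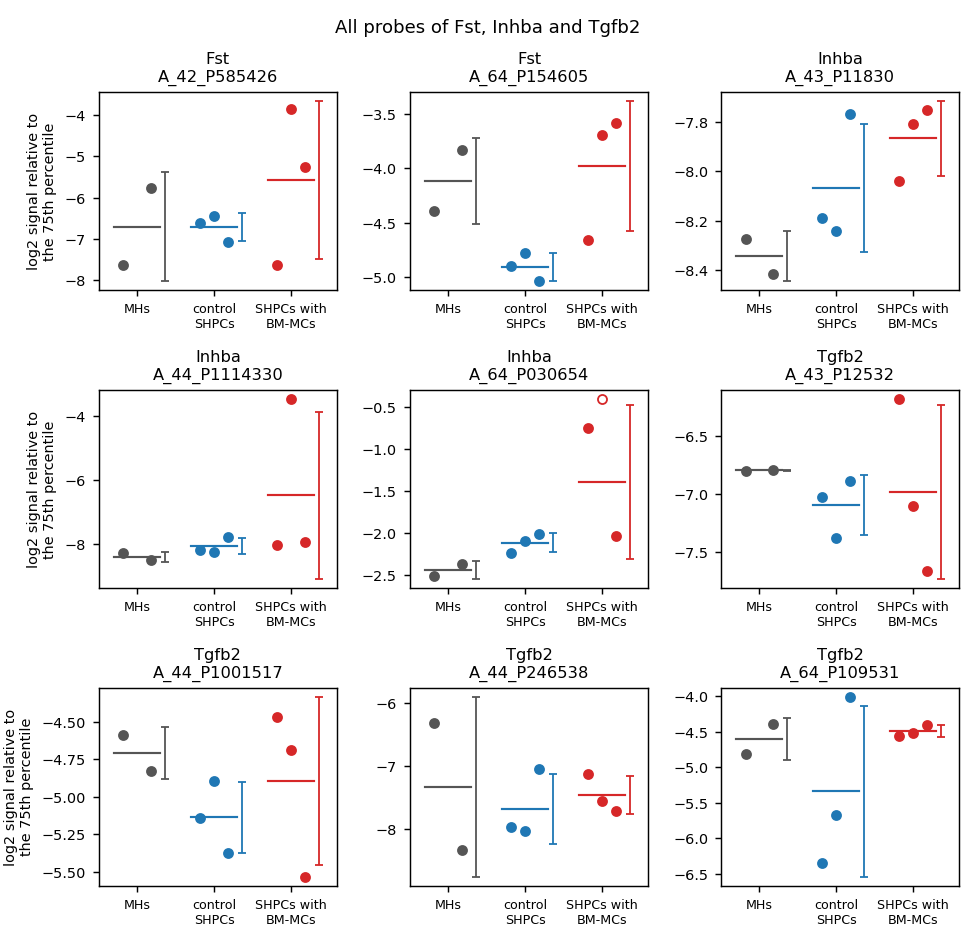
Level on every probe of Fst, Inhba and Tgfb2 (y axis, log2 signal relative to the 75th percentile of the array, with a different range in each panel) in MHs (grey), control SHPCs (blue) and SHPCs with BM-MCs (red). Points are samples, horizontal lines are means, vertical bars are SDs and the open circle is the marked Inhba spot. BM-MC replicate 2, the middle red point, stands at -3.46 on an Inhba probe on which the other 7 samples lie between -8.50 and -7.76.

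Inhbe encodes the beta E subunit, which is made mainly by hepatocytes. It was at -1.23 and -0.90 in MHs, at -0.73, -0.77 and 0.22 in control SHPCs, and at -0.76, -0.39 and -0.02 in SHPCs with BM-MCs. Every SHPC sample was above both MH samples, and control SHPC replicate 3 was the highest. The differences were 0.64 for control SHPCs (standard error 0.34, adjusted p = 0.35 from limma) and 0.67 for SHPCs with BM-MCs (standard error 0.34, adjusted p = 0.43 from limma). Within row 1 of the slide, control SHPCs were 0.31 above the MHs, and with the slide row as a block the difference of SHPCs with BM-MCs from MHs turned to -0.30. The SHPC groups differed by 0.03 (standard error 0.32, adjusted p = 0.97 from limma), with a sign that turned with median scaling and within row 2, where the difference was -0.61.

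A RefSeq promoter sequence spanning the transcription start was given for 8 of the 9 genes in the GRCr8 build and none was given for Fst. Each was searched on both strands for GTCTAGAC, a Smad-binding element, for CAGACA, the core of the CAGA box bound by Smads, and for TGATGCAA, a core of the element bound by the stress factor ATF4. GTCTAGAC was in 0 of the 8 promoters and in 0.197% of the 33469 promoters given. CAGACA was in 1, that of Inhba, and in 21.1% of all. TGATGCAA was in 1, that of Inhbe, on the opposite strand, and in 0.795% of all. The stretch that holds it lies at chr7:65064720-65064767 on the minus strand, from -248 to -201 relative to the start, and is printed with the match in capitals. Whether the match bears on the level of Inhbe was not tested. A match of these letters is not a measure of binding.
Inhbe promoter: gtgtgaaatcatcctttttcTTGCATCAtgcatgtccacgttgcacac

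Tgfbr1 and Tgfbr2 encode the type I and type II TGF-beta receptors. Tgfbr2 was at 2.20 and 2.21 in MHs, at 1.96, 1.85 and 1.81 in control SHPCs, and at 2.14, 1.92 and 1.90 in SHPCs with BM-MCs, so that all 6 SHPC samples lay below both MHs. The probe was spotted 10 times on each array. Over the 7 to 10 spots kept after outlier-marked ones were dropped, the SD on 1 array was between 0.02 and 0.08. Control SHPCs were 0.33 lower than MHs on the log2 scale (standard error 0.12, unadjusted p = 0.032 and adjusted p = 0.22 from limma), and SHPCs with BM-MCs were 0.21 lower (standard error 0.12, adjusted p = 0.48 from limma). A second Tgfbr2 probe gave -0.13 and -0.09, with overlapping groups. SHPCs with BM-MCs differed from control SHPCs by 0.11 on the first probe (adjusted p = 0.64 from limma), a sign that turned with median scaling.

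Tgfbr1 was at -0.79 and -0.62 in MHs and between -0.96 and -0.85 in control SHPCs, which were all below the MHs. It was between -1.01 and -0.78 in SHPCs with BM-MCs. Control SHPCs were at -0.21 relative to MHs (standard error 0.13, adjusted p = 0.40 from limma), and the SHPC groups differed by 0.03 (standard error 0.11, adjusted p = 0.90 from limma), with a sign that turned with median scaling. The former lay between -0.29 and -0.12 with a sample left out. A second, dimmer Tgfbr1 probe was not well above background in any of the SHPC samples with BM-MCs. On each tested probe of both receptors the difference between the SHPC groups was smaller than 1 standard error.

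Fst was the member whose SHPC groups differed most in relation to their spread. Its level was -4.40 and -3.83 in MHs, -4.90, -4.78 and -5.04 in control SHPCs, and -4.66, -3.69 and -3.58 in SHPCs with BM-MCs. The 3 control samples were the lowest of all 8, BM-MC replicate 1 lay near them, and BM-MC replicates 2 and 3 were the highest. The difference with BM-MCs was 0.93, a 1.90-fold higher mean signal (standard error 0.29, unadjusted p = 0.0185 and adjusted p = 0.24 from limma). Control SHPCs were 0.79 lower than MHs on the log2 scale (standard error 0.33, adjusted p = 0.26 from limma), and SHPCs with BM-MCs differed from MHs by 0.14 (adjusted p = 0.88 from limma), with a sign that turned with median scaling. The probe was spotted 10 times, and the SD of the 9 to 10 spots kept on 1 array was between 0.11 and 0.25. Within row 2 of the slide, SHPCs with BM-MCs were 1.06 above the only control there, and within row 1 control SHPCs were at -0.73 relative to MHs. The latter difference was -1.07 without MH replicate 1 and -0.51 without MH replicate 2.

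The Fst difference with BM-MCs was positive under every alternative run and passed the adjusted threshold under none. The methods' t-test, run on the same values, put it above an unadjusted p of 0.05, and at that level it called 0 members higher and 0 lower with BM-MCs, against 8.25% and 6.94% of all genes. Between control SHPCs and MHs it called 0 higher and 2 lower, Tgfb1 and Tgfbr2, against 7.43% and 11.8%, and for SHPCs with BM-MCs relative to MHs 0 higher and 1 lower, Tgfb1, against 5.36% and 7.95%. The Fst difference lay between 0.73 and 1.27 with a sample left out and was lowest, at 0.44, when the 7 complete arrays alone were used, with normexp, a model-based background correction, and quantile normalization. A second Fst probe was at -7.64, -3.84 and -5.26 in SHPCs with BM-MCs and at -6.61, -6.45 and -7.09 in control SHPCs. It was not well above background in any control sample and was well above it in BM-MC replicates 2 and 3 only, and BM-MC replicate 1 was the lowest of the 3 transplanted samples on both probes. The groups overlapped, and on the measured signals, which were not well above background in controls or in BM-MC replicate 1, the difference was 1.14 (standard error 0.90, adjusted p = 0.54 from limma).

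Smad7 encodes an inhibitory Smad that is induced by TGF-beta and blocks its receptor. It was at -0.67 and -0.78 in MHs, at -0.60, -0.69 and -0.36 in control SHPCs, and at -0.68, -0.50 and -0.02 in SHPCs with BM-MCs. BM-MC replicate 3 was the highest sample, and each SHPC group reached from within the range of the MHs to above it. The largest of its differences was 0.32, between SHPCs with BM-MCs and MHs (standard error 0.21, adjusted p = 0.52 from limma), and the SHPC groups differed by 0.15 (adjusted p = 0.72 from limma), with a sign that turned with median scaling. The former lay between 0.14 and 0.47 with a sample left out, and its lowest value over the alternatives was 0.044.

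The order of the group means was MHs, SHPCs with BM-MCs, control SHPCs for Tgfb1, Tgfbr1 and Tgfbr2, from highest to lowest. The MHs did not overlap with either SHPC group for Tgfb1 and Tgfbr2, and the SHPC groups overlapped for all 3 genes and changed places with median scaling. For Fst the order was SHPCs with BM-MCs, MHs, control SHPCs, where the first 2 overlapped and changed places with median scaling. For Inhba, Inhbe and Smad7 the order was SHPCs with BM-MCs, control SHPCs, MHs, and the SHPC groups overlapped for each and, for Inhbe and Smad7, changed places with median scaling and with the slide row as a block. On their brightest probes, Tgfb2 and Tgfb3 had groups that overlapped in every comparison.

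Around these members, 85 further genes of the pathway were listed by role, and 65 of them were bright enough to be tested. In the comparison of control SHPCs with MHs, limma called 1 of the 65 higher and 0 lower, against 1% and 0.221% of all genes, and at an unadjusted p under 0.05 it had 8 higher and 6 lower, against 7.72% and 12.5% of all genes. In the comparison of SHPCs with BM-MCs with MHs, which shares the MH samples, 0 were called in either direction, with 6 higher and 1, Bmp7, lower at an unadjusted p under 0.05 (a difference of -0.46), against 6.79% and 6.74% of all genes. With BM-MCs set against controls 0 were called, with 3 higher and 6 lower at an unadjusted p under 0.05, against 10.3% and 5.87% of all genes. The medians over the 65 genes were -0.07, 0.05 and 0.07 on the log2 scale in these comparisons, against -0.06, -0.02 and 0.02 for all genes.

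Ltbp4, which encodes a protein that binds latent TGF-beta to the matrix, was the pathway gene that passed. It was at -3.37 and -2.86 in MHs, at -1.96, -1.83 and -1.55 in control SHPCs, and at -1.84, -1.995 and -1.54 in SHPCs with BM-MCs. All SHPC samples were above both MHs, and the SHPC groups overlapped. Control SHPCs were 1.34 above MHs, a 2.53-fold difference (standard error 0.22, adjusted p = 0.038 from limma), and SHPCs with BM-MCs were 1.32 above MHs (standard error 0.22, adjusted p = 0.074 from limma). Over the 21 alternatives the difference of control SHPCs stayed between 1.04 and 1.59, its adjusted p from limma was between 0.012 and 0.24, and 7 of them passed. It did not pass without either MH sample, without any control SHPC sample, or without BM-MC replicate 1 or 2. Of the 10 tested genes for latency and release, which include other latent TGF-beta binding proteins and activating integrins, 1 was called, against 1% of all genes higher, and the median difference of control SHPCs from MHs was -0.15.

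Gdf15, a stress-induced ligand distantly related to TGF-beta, had the largest difference of the pathway between the SHPC groups. It was at -3.94, -3.77 and -3.83 in control SHPCs, at -2.17, -1.02 and -1.67 in SHPCs with BM-MCs, and at -1.37 and -2.75 in MHs. The 3 control samples were close together and below all other samples, while the SHPCs with BM-MCs overlapped with the MHs. The difference with BM-MCs was 2.23, a 4.68-fold higher signal (standard error 0.28, adjusted p = 0.081 from limma), and control SHPCs were 1.79 lower than MHs on the log2 scale (standard error 0.44, adjusted p = 0.12 from limma). With a sample left out the latter lay between -2.48 and -1.10, and it was nearest to 0 without MH replicate 1. The difference with BM-MCs was between 1.71 and 2.50 over 19 alternatives, and 3 of them passed, with no scaling (adjusted p = 0.012 from limma), with a trend on intensity in limma (adjusted p = 0.036) and without control SHPC replicate 3 (adjusted p = 0.045 from limma). Of the 10 other ligand genes tested, Gdf15 was the 1 with an unadjusted p under 0.05 between the SHPC groups, against 10.3% of all genes higher. Marker lists of other cells were compared between the SHPC groups as well. Of the 4 granulocyte and platelet markers tested, 3 were lower and 1 was higher with BM-MCs at an unadjusted p under 0.05, against 5.87% and 10.3% of all genes. The lower ones were S100a8, S100a9 and Pf4 at -1.46, -1.84 and -0.35, and the higher one was Gp9 at 0.48 (adjusted p = 0.12, 0.070, 0.29 and 0.27 from limma). The log2 sum of the list, set mainly by S100a8 and S100a9, was 0.23 to 0.68 in control SHPCs, -1.23 to -0.87 with BM-MCs and -1.02 and 0.63 in MHs. At the same level 2 of 8 stellate, 1 of 8 macrophage and 2 of 6 endothelial markers were higher and 0 were lower, and 2 of 4 biliary markers were lower and 0 were higher. Of the 8 stellate markers all had higher means with BM-MCs, with a median of 0.25, and in these lists 0 markers passed the adjusted threshold. The part of these cells, and of the lower cell cycle genes, in the Fst and Gdf15 differences was not tested.

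In control SHPCs set against MHs, the other ligands had a median difference of -0.48 on the log2 scale against -0.06 for all genes. At an unadjusted p under 0.05, 4 of the 10 were lower and 1 was higher, against 12.5% and 7.72% of all genes, and 0 passed the adjusted threshold. Besides Gdf15 the lower ones were Bmp2 at -0.62, Gdf2, which encodes BMP9, at -0.53 and Bmp7 at -0.42 (adjusted p = 0.24, 0.22 and 0.25 from limma). The higher one was Inhbc, which encodes the activin subunit beta C, made mainly by hepatocytes. It was at -1.91 and -1.43 in MHs, at -0.87, -1.01 and -0.25 in control SHPCs, and at -1.41, -1.49 and -0.38 in SHPCs with BM-MCs. As with Inhbe, control SHPC replicate 3 was the highest sample and all control SHPCs lay above both MHs, by 0.97 on average (standard error 0.38, adjusted p = 0.24 from limma). These 4 genes outside the naming rule, the marker genes named above and the genes named in the same way below were picked after their values were seen.

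Chrd, whose product chordin binds bone morphogenetic proteins, was at -2.86, -2.75 and -2.26 in control SHPCs and at -1.82, -1.39 and -1.68 with BM-MCs. The groups did not overlap, and the difference was 0.99 (standard error 0.20, adjusted p = 0.14 from limma). It was 1.18 without control SHPC replicate 3 (adjusted p = 0.039 from limma) and 0.63 with the slide row as a block (adjusted p = 0.45 from limma). Ltbp3, another latent TGF-beta binding protein gene, was 0.95 above controls (standard error 0.26, adjusted p = 0.19 from limma), also without overlap, and over the alternatives this value lay between 0.39 and 1.34. Of the 6 extracellular inhibitors tested, 1 was higher and 0 were lower with BM-MCs at an unadjusted p under 0.05, against 10.3% and 5.87% of all genes. Of the 8 other receptors tested, 0 were higher and 2 were lower, against the same shares, namely Acvr1c at -0.44 and Hjv, a coreceptor of bone morphogenetic proteins, at -0.43 (adjusted p = 0.21 and 0.24 from limma).

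Smad proteins and their regulators were tested for 15 genes, of which 0 were higher and 3 were lower with BM-MCs at an unadjusted p under 0.05, against 10.3% and 5.87% of all genes. The lower ones were Smad4, the partner shared by receptor-activated Smads, at -0.51, Strap at -0.38 and Trim33 at -0.33 (adjusted p = 0.22, 0.27 and 0.28 from limma). The median difference over the list was 0.01. Known Smad target genes were tested for 16 genes, with 0 higher and 1 lower in the same comparison and a median of 0.02, against 0.02 for all genes. The lower one was Cdkn2b, which encodes the cell cycle inhibitor p15, at -0.46 (adjusted p = 0.29 from limma).

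**Figure D4:**
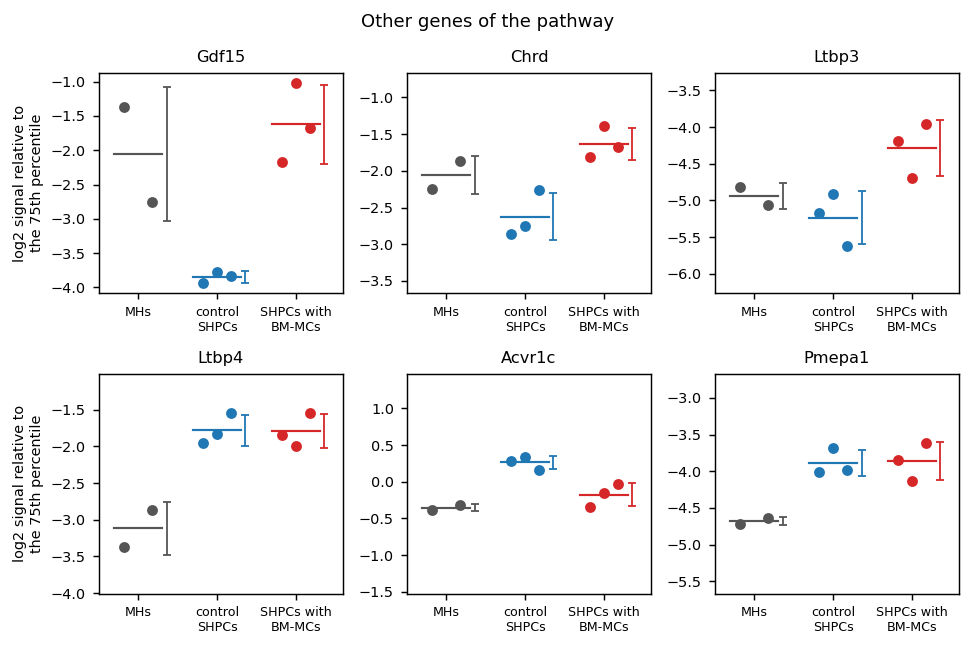
Level of 6 further pathway genes (y axis, log2 signal relative to the 75th percentile of the array) in MHs (grey), control SHPCs (blue) and SHPCs with BM-MCs (red). Points are samples, horizontal lines are means and vertical bars are SDs. Both MH points of Ltbp4 lie below all SHPC points, and the control points of Gdf15, at -3.94 to -3.77, lie below all other points.

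Relative to MHs, the Smad targets had mixed signs. In control SHPCs, 3 of 16 were higher and 1 was lower than in MHs at an unadjusted p under 0.05, against 7.72% and 12.5% of all genes. Pmepa1, a target that feeds back on TGF-beta receptors, was at -4.71 and -4.64 in MHs and at -4.01, -3.68 and -3.98 in control SHPCs, a difference of 0.79 (standard error 0.18, adjusted p = 0.10 from limma), which was 0.33 with normexp and quantile normalization on the complete arrays. Col1a1, the alpha 1 chain of type I collagen, differed by 1.11 (standard error 0.34, adjusted p = 0.16 from limma) and by 0.73 without MH replicate 1, and Id1, a target of bone morphogenetic protein signals, by 0.94 (standard error 0.32, adjusted p = 0.20 from limma, and 0.034 without BM-MC replicate 3). Cdkn1a, which encodes the cell cycle inhibitor p21, was at 3.84 and 3.44 in MHs and at 2.61, 2.66 and 2.06 in control SHPCs, a difference of -1.20 (standard error 0.40, adjusted p = 0.19 from limma). None of these groups overlapped.

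Outside the Smad targets, Acvr1c, which encodes a type I receptor for activins, was 0.62 above MHs in control SHPCs (standard error 0.13, adjusted p = 0.095 from limma), with no overlap, and passed with a trend on intensity in limma (adjusted p = 0.037). In SHPCs with BM-MCs the differences from MHs were 0.81 for Pmepa1 (adjusted p = 0.18 from limma), 1.14 for Atoh8, a further target (adjusted p = 0.28 from limma), 0.87 for Col1a1 and -0.87 for Cdkn1a (adjusted p = 0.34 and 0.39 from limma). Ltbp3 was at 0.65, Id1 at 0.65 and the ligand gene Bmp4 at 0.60 in that comparison (adjusted p = 0.37, 0.43 and 0.46 from limma). These values depended on the setting, and none of them passed under any alternative run. The lowest over the alternatives was 0.33 for Pmepa1 and 0.19 for Ltbp3, both with normexp and quantile normalization on the complete arrays. With the slide row as a block Atoh8 was at 0.30, Cdkn1a at -0.30 and Bmp4 at -0.11. Without BM-MC replicate 3 Id1 was at 0.29 and Cdkn1a at -0.46, without BM-MC replicate 1 Bmp4 was at 0.33, and without MH replicate 1 Col1a1 was at 0.50.

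Patterns of level across samples were compared for the 3 members with the widest range of group means. Across the 8 samples, the genes most like Fst were Ivns1abp (Pearson r = 0.98), Plag1 (r = 0.96) and Cyp2c13 (r = 0.95). Those most like Tgfb2 were Mon1b (r = 0.98), Med17 (r = 0.97) and LOC103691236 (r = 0.97). Over the 7 samples with an Inhba value, the genes most like Inhba were Tnnt2 (r = 0.99), Tchp and Pdss2 (each r = 0.97). These correlations are descriptions over few samples that share a slide and group differences. They are the highest among the tested genes with a value on every array.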

How the data were processed

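Expression was measured in 8 samples on 1-colour Agilent rat arrays. Per the file headers, the deposited values are processed signal intensities, background-subtracted by the authors with Agilent Feature Extraction 10.7 and not scaled between arrays. The scanner file of control SHPC replicate 2 was complete for 20903 of 62976 features only, so the signals of all samples were taken from the deposited value table, which differed from the complete scanner files by a relative 1.19e-06 at most, and that array's marks did not enter the filter. Depth does not apply to arrays, and their number limits the precision.

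The 75th percentile of an array's log2 signals was subtracted from each of them, outlier-marked spots were dropped, and repeated spots were reduced to their mean per probe. Testing was limited to the 23065 probes that exceeded background clearly on 3 or more of the 7 complete arrays, and used limma 3.58.1 (R 4.3.3) with Benjamini-Hochberg adjustment over all of them and a threshold of 0.05. SHPCs with BM-MCs and control SHPCs were compared in a fit of their 6 samples, and both comparisons with MHs in 1 fit of all 8. A gene was represented by its brightest tested probe. The fits were tested on simulated data.

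The members and gene lists were chosen with earlier results of these data known. All members were named, and from the pathway lists every gene past the threshold and, up to 8 per comparison, those of lowest p with at least a 1.5-fold difference and no overlap between groups. A gene that this rule names is not reported here. Alternatives covered scaling, background correction, filters, outlier marks, blocks for slide row and replicate number, the methods' t-test, a trend on intensity, and each sample left out. Of the array's probes, 9746 had no gene name and were tested by probe only.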

Additional observations from a re-analysis of the deposited data

How the results depend on the processing

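The number of arrays, 2 or 3 a group, limits every comparison, and for dim genes such as Tgfb2 and Fst the signal over background does too. The counts of members past the adjusted threshold were all 0, and 1 gene was called lower in control SHPCs than in MHs (Tgfb1) when every complete array had to exceed background. Leaving out each sample gave 0 to 1 member higher with BM-MCs relative to control SHPCs (Tgfb2, without control SHPC replicate 3) and 0 to 1 higher relative to MHs (Inhba, without BM-MC replicate 3, where replicate 1 was the lone BM-MC value and its spread was taken from the other groups). Over all probes, the 5 higher and 0 lower with BM-MCs relative to control SHPCs became 0 to 207 and 0 to 7 over the other settings and 0 to 490 and 0 to 40 with a sample left out, the highest without control SHPC replicate 3. The 212 higher and 49 lower in control SHPCs relative to MHs became 0 to 355 and 0 to 202, and 49 to 309 and 4 to 214 with a sample left out. The 74 higher and 4 lower with BM-MCs relative to MHs became 0 to 115 and 0 to 17, and 0 to 109 and 0 to 8. Whether replicate numbers pair the samples is not known. Between the SHPC groups, correlations of the deviations of same-numbered samples were 0.13, 0.08 and 0.17. Those of differently numbered samples lay between -0.15 and 0.08. The MHs cannot inform on this, since the deviations of 2 samples from their mean mirror each other. With the replicate number as a block limma called 0 probes higher with BM-MCs relative to control SHPCs. It called 132 higher and 29 lower in control SHPCs relative to MHs, and 0 members in any comparison. At the methods' own threshold, an unadjusted p under 0.05, their t-test called 0 members with BM-MCs relative to control SHPCs, 2 lower in control SHPCs and 1 lower with BM-MCs relative to MHs, with the shares of all genes given above, and 0 after adjustment.

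Differences that turned their sign, none of them past the threshold, were as follows. Relative to control SHPCs, median scaling gave -0.037 for Tgfb1, -0.16 for Tgfbr1, -0.077 for Tgfbr2, -0.16 for Inhbe and -0.042 for Smad7. Quantile normalization gave -0.023 for Tgfb1, and with normexp on the complete arrays it gave -0.027 for Tgfb1 and -0.13 for Inhbe. The slide row as a block gave -0.48 for Tgfb2, -0.61 for Inhbe and -0.038 for Smad7. With a sample left out, the difference ran from -0.70 to 0.056 for Tgfb3, from -0.011 to 0.10 for Tgfbr1, from -0.15 to 0.36 for Inhbe and from -0.040 to 0.29 for Smad7. For control SHPCs relative to MHs, Tgfb3 was 0.24 with the replicate block, 0.11 with the slide row as a block and -0.10 to 0.11 with a sample left out. For SHPCs with BM-MCs relative to MHs, median scaling gave -0.089 for Tgfb2 and -0.061 for Fst, quantile normalization -0.095 and -0.029, and normexp with quantile normalization -0.038 and -0.0038. The replicate block gave -0.25 for Tgfb2, and the slide row as a block gave -1.89 for Tgfb2, 0.016 for Tgfb3, -0.30 for Inhbe and -0.11 for Bmp4. With a sample left out, the difference ran from -0.10 to 0.32 for Tgfb2, from -0.72 to 0.032 for Tgfb3 and from -0.14 to 0.48 for Fst. The cause was not tested. The other settings kept the direction of every member and of the pathway genes named by rule.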
